A study of Rattus norvegicus with 8 samples.

Results

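The miR-322 and miR-503 cluster is a run of miRNA hairpins on the rat X chromosome. Its mature arms were read in cultured rat BMSCs (bone marrow mesenchymal stem cells), a stromal population of the marrow from which bone, cartilage and fat cells can arise. Arms were taken by name: every row of the deposited miRNA table called miR-322, miR-503, miR-351, miR-542 or miR-450a, on either arm. That gave 10 of the 487 mature miRNAs in the table, a 5p and a 3p arm for each of the 5 hairpins, and 9 of the 10 passed the filter on low counts. The 4 treated samples received 10 µM dexamethasone, a synthetic glucocorticoid, for 48 h, and the 4 control samples are labelled only as control. The comparison asks which miRNA levels differ between treated and control cells. The labels used here give no vehicle, rat strain, passage number or batch for either group, and they describe a single dose and a single time.

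Clustered hairpins such as these are cut from a shared primary transcript, and each hairpin releases 2 arms. An arm loaded into Argonaute pairs with messenger RNAs mainly through its seed, bases 2 to 8 from the 5′ end. miR-322 is the rodent counterpart of human miR-424. Together with miR-503 it is known for repressing cell cycle genes such as Cdc25a in differentiating mouse myoblasts, and mouse miR-322 has been linked to osteogenic differentiation.

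RefSeq places the hairpins on the minus strand of chromosome X in the assembly GRCr8, in the order Mir322, Mir503, Mir351, Mir542 and Mir450a1 along the direction of transcription. Mir450b-1 lies between Mir542 and Mir450a1, an uncharacterized lncRNA gene between Mir351 and Mir542, and the protein-coding genes Plac1 and Hprt1 flank the run. The files were made on another build, so no coordinates are given. All 10 arms matched a RefSeq mature sequence. They are shown 5′ to 3′ with the seed in capitals, because the seed groups used below rest on these letters.
rno-miR-322-5p: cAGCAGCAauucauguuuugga
rno-miR-322-3p: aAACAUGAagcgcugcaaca
rno-miR-503-5p: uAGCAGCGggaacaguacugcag
rno-miR-503-3p: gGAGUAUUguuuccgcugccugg
rno-miR-351-5p: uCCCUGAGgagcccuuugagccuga
rno-miR-351-3p: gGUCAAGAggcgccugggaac
rno-miR-542-5p: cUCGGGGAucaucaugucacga
rno-miR-542-3p: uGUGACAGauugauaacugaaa
rno-miR-450a-5p: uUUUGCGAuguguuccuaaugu
rno-miR-450a-3p: uAUUGGGAacauuuugcauaa

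No pair of these arms had an identical seed. The seeds of miR-322-5p and miR-503-5p matched over bases 2 to 7. The arms of miR-503 and miR-542, whose 2 arms were both well counted, sit in their hairpins as follows, with the mature arms in capitals.
Mir503: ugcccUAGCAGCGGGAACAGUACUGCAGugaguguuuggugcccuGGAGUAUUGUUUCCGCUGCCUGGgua
Mir542: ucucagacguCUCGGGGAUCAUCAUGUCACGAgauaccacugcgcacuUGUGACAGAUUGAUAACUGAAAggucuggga

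Libraries held 1377881 to 1521505 counts after dexamethasone and 1835256 to 2639007 counts in controls, so every treated library was shallower. Levels are given in CPM, counts scaled to the same total of miRNA counts in every library, and 3 counts were worth 1.97 to 2.18 CPM in treated and 1.14 to 1.63 CPM in control libraries. These floors reflect counting error alone. Nothing in the labels ties replicates to separate cultures, so p-values here measure only the spread between these libraries, which may be technical. In such bulk samples a change in the make-up of the cells and a change in RNA per cell cannot be told apart. Among marker miRNAs, the summed level of the mesenchymal list (arms of miR-199a, miR-214, miR-143, miR-145, miR-140 and miR-22) was 142626 to 145642 CPM after dexamethasone and 132972 to 138644 CPM in controls, with 3 of its 12 arms called higher and 4 lower. Skeletal muscle markers summed to 237 to 336 CPM after dexamethasone and 77.3 to 109.5 CPM in controls, with 3 of 7 arms called higher and 0 lower. Endothelial miR-126a arms summed to 1163 to 1331 CPM after dexamethasone and 1790.1 to 2000.3 CPM in controls, with both arms called lower. Haematopoietic markers summed to 531 to 583 CPM after dexamethasone and 442 to 478 CPM in controls, with 2 of 8 arms higher. Epithelial markers summed to 10.2 to 22.3 CPM after dexamethasone and 12.1 to 17.4 CPM in controls, and neural ones to 452 to 533 CPM after dexamethasone and 460.4 to 514 CPM in controls, with 0 and 1 arms called. No marker arm with a row was at 0 in all 8 libraries. The arm totals include arms below the filter, which had no test and so could not be called. Among these were the arms of miR-141, miR-200a, miR-200b and miR-200c, the arms of miR-133a, and miR-142-5p. Few or no calls in a list, as in the epithelial one, therefore say little about it. The part of other cells in the results for the cluster was not tested.

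The 9 arms that passed the filter were called higher after dexamethasone and 0 were called lower (edgeR quasi-likelihood test, Benjamini-Hochberg adjusted p below 0.05 over 245 tested miRNAs). Over all tested miRNAs 24.9% were called higher and 21.2% lower, 46.1% in either direction, that is 61 higher and 52 lower, against 41 higher and 71 lower with upper quartile scaling. In 7 of the 9 arms every treated library lay above every control library, which held for 21.6% of all tested miRNAs, while 20.4% had every treated library below every control. The median log2 fold change of the 9 arms was 0.85, against 0.00 over all tested miRNAs. The count was also 9 after every library was thinned to 1377881 counts. It was 6 without control replicate 1, where miR-322-5p, miR-322-3p and miR-450a-5p missed the threshold, and 7 with upper quartile scaling, where miR-322-5p and miR-450a-5p did. The DESeq2 Wald test called 7, without miR-322-3p and miR-450a-5p.

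**Figure D1:**
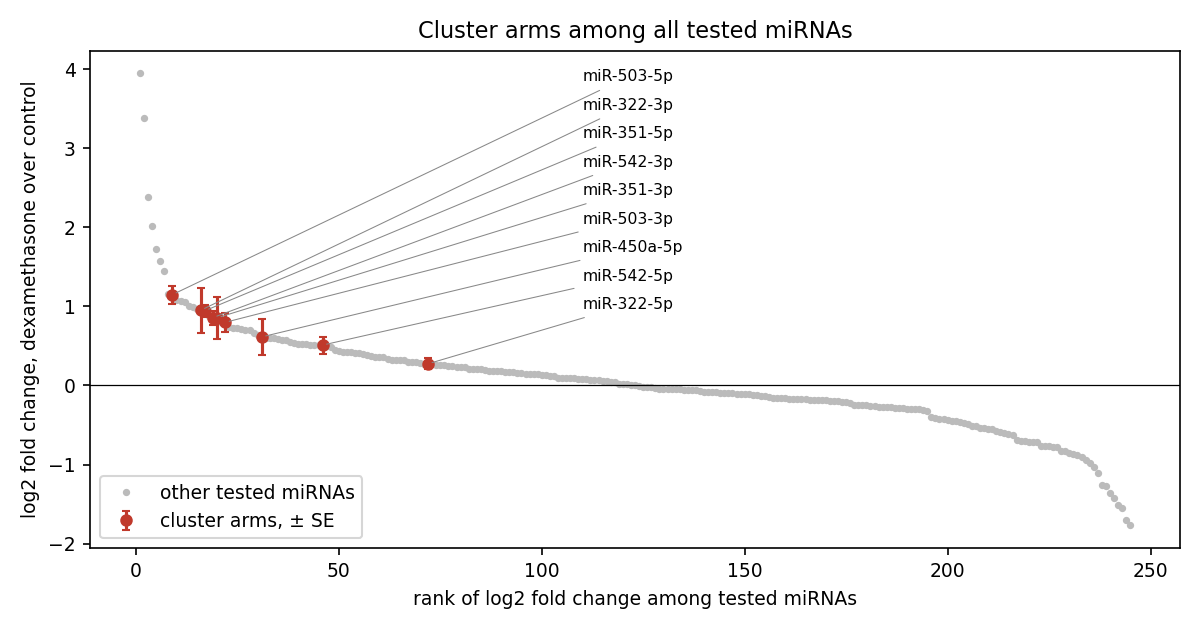
Log2 fold change, dexamethasone over control, of the 245 tested miRNAs, ordered by that value on the horizontal axis; red points are the 9 cluster arms with their standard errors, grey points the others. The cluster arms run from 1.15 for miR-503-5p, at rank 9, to 0.27 for miR-322-5p, at rank 72, and lie above 0.

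rno-miR-503-5p, which in human cells is known to repress the cyclin genes CCND1 and CCNE1, had the largest fitted log2 fold change of the 9 tested arms. rno-miR-503-5p stood at 275, 280.0, 227 and 232 CPM in dexamethasone replicates 1 to 4, against 124.3, 127, 101 and 112 CPM in control replicates 1 to 4. The groups were far apart, and dexamethasone replicates 1 and 2 were the highest. It averaged 254 ± 28.0 CPM after dexamethasone and 116 ± 11.9 CPM in controls (SD, n = 4 each), a log2 fold change of 1.15 ± 0.11 (SE), or 2.22-fold (adjusted p = 7.20e-06 by edgeR). The other arm, rno-miR-503-3p, averaged 178.5 CPM after dexamethasone and 104.2 CPM in controls. It had 159, 188, 179 and 187 CPM in dexamethasone replicates 1 to 4 and 105, 127.7, 93.7 and 89.9 CPM in control replicates 1 to 4. The lowest treated library, replicate 1, was above the highest control, replicate 2 (log2 fold change 0.80 ± 0.12, SE, adjusted p = 1.48e-04 by edgeR).

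rno-miR-351-5p carries the seed of the miR-125 family. rno-miR-351-5p was at 1590.3, 1572, 1650.0 and 1424 CPM in dexamethasone replicates 1 to 4, against 853, 842, 779 and 829 CPM in control replicates 1 to 4. Every treated library was at least 1424 CPM and every control library at most 853 CPM. The log2 fold change was 0.94 ± 0.07 (SE), or 1.92-fold, with the smallest adjusted p of the cluster (adjusted p = 6.62e-07 by edgeR). The 3p arm, rno-miR-351-3p, was rare, with 25, 43, 44 and 28 counts after dexamethasone and 49, 34, 23 and 18 counts in controls. miR-351-3p averaged 24.2 ± 6.47 CPM after dexamethasone and 13.4 ± 4.35 CPM in controls (SD, n = 4 each), and the groups overlapped. The log2 fold change of 0.85 ± 0.27 (SE, adjusted p = 0.0197 by edgeR) missed the threshold without dexamethasone replicate 2 or 3 or control replicate 4 (edgeR adjusted p = 0.0576, 0.0723 and 0.0541; range over the 15 alternatives 0.0075 to 0.0723).

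rno-miR-542-3p, known for repressing the survivin gene BIRC5 in human cells, is the more abundant arm of its hairpin. rno-miR-542-3p was at 407, 426, 368 and 364 CPM in dexamethasone replicates 1 to 4 and at 211, 207, 242 and 221.6 CPM in control replicates 1 to 4. The groups did not overlap, and the spread within each was small beside the gap (log2 fold change 0.86 ± 0.09, SE, 1.81-fold, adjusted p = 7.58e-06 by edgeR). rno-miR-542-5p stood at 212, 162, 210.4 and 210.5 CPM in dexamethasone replicates 1 to 4, against 144.8, 141, 147 and 138 CPM in control replicates 1 to 4. Dexamethasone replicate 2 lay well below the other treated libraries, though still above every control. Its log2 fold change was 0.51 ± 0.11 (SE, adjusted p = 0.00209 by edgeR).

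rno-miR-322-5p was the most abundant arm and had the smallest log2 fold change of the 9 tested arms. rno-miR-322-5p had 1984, 1906, 1903 and 1693 CPM in dexamethasone replicates 1 to 4 and 1500.2, 1575, 1589 and 1655 CPM in control replicates 1 to 4. The groups were apart by little: the lowest treated library, replicate 4, was just above the highest control, also replicate 4. The log2 fold change was 0.27 ± 0.07 (SE), or 1.21-fold (adjusted p = 0.00803 by edgeR). With upper quartile scaling it was 0.12, where the median of all tested miRNAs was -0.15 (adjusted p = 0.267 by edgeR), and without control replicate 1 it was 0.24 (adjusted p = 0.0535 by edgeR; range over the 15 alternatives 5.48e-04 to 0.267). The 3p arm, rno-miR-322-3p, rested on few counts, 19, 18, 16 and 17 after dexamethasone and 10, 17, 17 and 13 in controls. Because the treated libraries were shallower, these counts came to 12.1 ± 0.788 CPM after dexamethasone and 6.53 ± 2.31 CPM in controls (SD, n = 4 each), with no overlap. The log2 fold change of 0.95 ± 0.28 (SE, adjusted p = 0.0154 by edgeR) missed the threshold with the DESeq2 Wald test (adjusted p = 0.062) and without control replicate 1 (adjusted p = 0.0538 by edgeR; range over the 15 alternatives 0.00979 to 0.062).

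miR-450a, the last hairpin of the run, was the least abundant. rno-miR-450a-5p had 24.8, 30.9, 26.03 and 23.9 CPM in dexamethasone replicates 1 to 4 and 16.3, 17.03, 10.9 and 25.6 CPM in control replicates 1 to 4. Control replicate 4 lay among the treated libraries, so the groups overlapped (log2 fold change 0.61 ± 0.23, SE, adjusted p = 0.0444 by edgeR). In 12 of 15 alternatives it missed the threshold, with edgeR or DESeq2 adjusted p up to 0.135, reached without dexamethasone replicate 2. In the authors' deposited table its adjusted p was 0.054, and 8 of the 10 arms were below 0.05. rno-miR-450a-3p, which did not pass the filter, had 1, 5, 6 and 5 counts after dexamethasone and 7, 3, 2 and 0 counts in controls. With no filter its log2 fold change was 1.14 ± 0.69 (SE, adjusted p = 0.274 by edgeR), so at this depth a difference was not detectable.

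**Figure D2:**
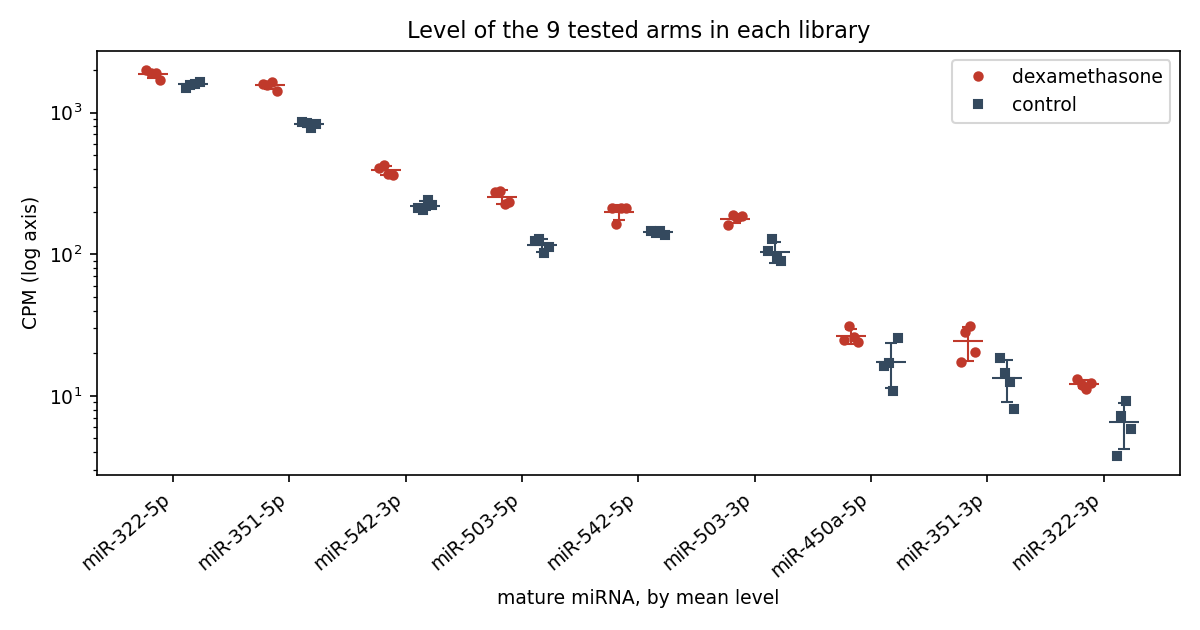
CPM on a log axis of the 9 tested arms in each of the 4 dexamethasone libraries (circles) and 4 control libraries (squares), with bars for the mean and SD of each group; miR-450a-3p, below the filter, is not drawn. The treated libraries lie above the controls without overlap in 7 arms, and overlap them in miR-351-3p and miR-450a-5p.

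The order of levels was led in both groups by miR-322-5p, miR-351-5p and miR-542-3p, which did not overlap each other within either group. After dexamethasone, miR-503-5p came next, followed by miR-542-5p and miR-503-3p, whose ranges overlapped (162 to 212 CPM and 159 to 188 CPM). In controls miR-542-5p came next, above miR-503-5p and miR-503-3p, whose ranges overlapped (101 to 127 CPM and 89.9 to 127.7 CPM). The 3 least abundant tested arms, miR-450a-5p, miR-351-3p and miR-322-3p, kept that order in both groups, with miR-450a-5p and miR-351-3p overlapping in each, and miR-351-3p and miR-322-3p in controls. Ligation and amplification favour some miRNAs, so this is an order of counts and not of molecules.

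Summed over all 10 arms, the cluster took 4684, 4609, 4609 and 4171 CPM in dexamethasone replicates 1 to 4 and 2981, 3058, 2987 and 3085 CPM in control replicates 1 to 4. Within that sum the share of miR-322-5p was 41.4 ± 0.724% after dexamethasone and 52.2 ± 1.54% in controls, and that of miR-351-5p 34.5 ± 0.868% after dexamethasone and 27.3 ± 1.07% in controls (SD, n = 4 each). By hairpin, both arms added, the treated mean was 1.96 times the control mean for miR-503, 1.89 times for miR-351, 1.63 times for miR-542, 1.57 times for miR-450a and 1.19 times for miR-322. The hairpin first in the order of transcription thus had the smallest ratio and its neighbour the largest. The miR-322 ratio was set almost wholly by the abundant 5p arm. For miR-322-3p alone, on few counts, the treated mean was 1.86 times the control mean.

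Whether arms changed by different amounts was tested on the ratio of each miRNA to miR-322-5p in the same library, which does not depend on how libraries are scaled. miR-322-5p was taken for this with its small change, the smallest among the tested arms, already known. The upward direction of the other arms, and the absence of lower ones, therefore followed from that choice and are no result. The same choice favoured larger differences and smaller p-values in what follows. Relative to miR-322-5p, 5 of the 8 other tested arms were higher after dexamethasone and 0 lower (limma, Benjamini-Hochberg adjusted p below 0.05). Of the 244 other tested miRNAs, 9.84% were higher and 31.6% lower by the same test. Because of the choice of reference, these shares cannot show whether the cluster arms stand out. miR-503-5p counted 0.136 ± 0.0117 per miR-322-5p count after dexamethasone and 0.0742 ± 0.00945 in controls (SD, n = 4 each), a log2 difference of 0.88 ± 0.12 (SE, limma adjusted p = 5.62e-04). For miR-351-5p the ratio was 0.834 ± 0.0276 after dexamethasone and 0.524 ± 0.0355 in controls (SD, n = 4 each), a log2 difference of 0.67 ± 0.08 (SE, limma adjusted p = 3.88e-04). miR-542-3p differed by 0.58 ± 0.09 (log2, SE, limma adjusted p = 0.00117). These 3 arms passed in each of the 12 alternatives for this test.

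miR-503-3p and miR-322-3p passed by less, at log2 differences of 0.54 ± 0.15 and 0.66 ± 0.22 (SE, limma adjusted p = 0.0215 and 0.0395). miR-503-3p missed the threshold without dexamethasone replicate 2 or control replicate 3 or 4 (limma adjusted p = 0.0535, 0.0572 and 0.0549; range over the 12 alternatives 0.0125 to 0.0714). miR-322-3p did so without any 1 library other than control replicate 3 (limma adjusted p = 0.0526 to 0.0922; range over the 12 alternatives 0.0118 to 0.0922). miR-542-5p, miR-351-3p and miR-450a-5p did not pass, with 95% intervals of the log2 difference from miR-322-5p of -0.06 to 0.52, -0.07 to 1.27 and -0.11 to 0.90. miR-542-5p passed without dexamethasone replicate 2 and miR-450a-5p without control replicate 4 (limma adjusted p = 0.045 and 0.0445). The interval of miR-351-3p reaches differences as large as that of miR-503-5p.

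**Figure D3:**
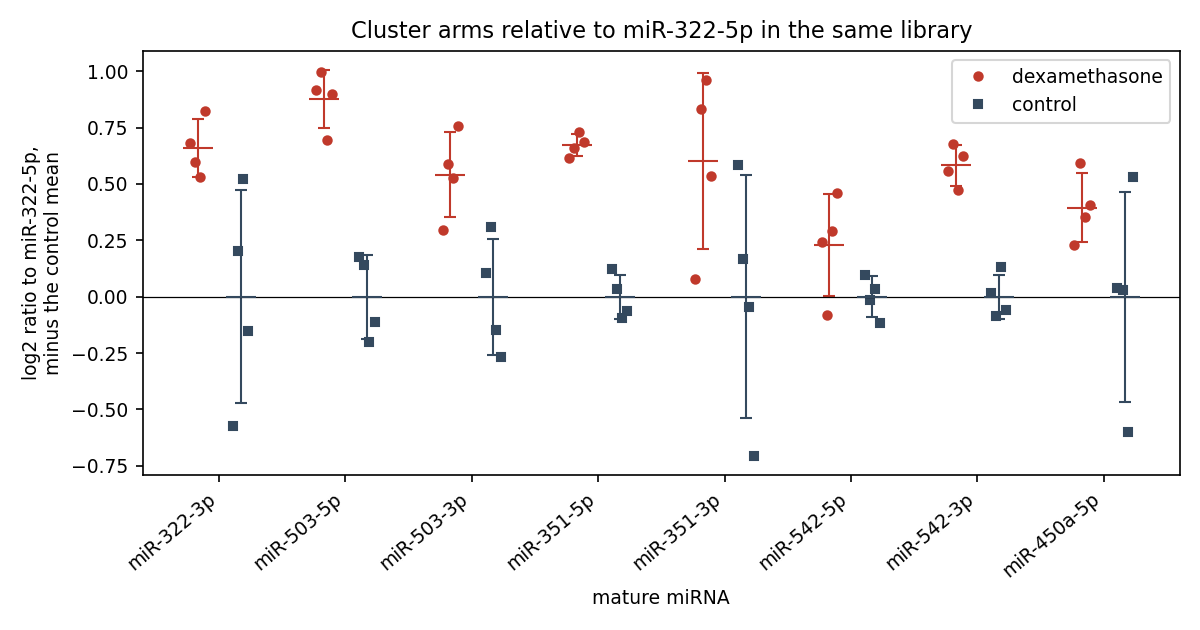
Log2 ratio of each cluster arm to miR-322-5p in the same library, minus the control mean, for the 4 dexamethasone libraries (circles) and 4 control libraries (squares), with bars for mean and SD. The groups are apart in miR-503-5p, miR-351-5p and miR-542-3p, and overlap in the other arms except miR-322-3p. For miR-322-3p the gap is very narrow, with a lowest treated ratio of 0.00620 and a highest control ratio of 0.00617. How often all tested miRNAs were apart in this ratio was not computed. The upward direction follows from the choice of miR-322-5p.

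The balance of the 2 arms within a hairpin was tested as the ratio of 5p to 3p, with a prior count of 1, in the 53 hairpins with both arms past the filter. None of the 4 cluster hairpins tested passed (0 of 4; limma adjusted p below 0.05 in 1.89% of the 53 hairpins), and 1 of the 4, miR-322, had an unadjusted p below 0.05, as did 13 of the 53 hairpins (24.5%). The miR-322 hairpin was read almost wholly as its 5p arm, with 145.3, 154, 161 and 132 5p counts per 3p count in dexamethasone replicates 1 to 4 and 347, 202, 162 and 259 in control replicates 1 to 4. Treated values lay below controls, but only just, at 161 in dexamethasone replicate 3 against 162 in control replicate 3. The log2 change was -0.66 ± 0.23 (SE, limma adjusted p = 0.126). Groups were also apart in this kind of ratio, in either direction, in hairpins outside the cluster, among them miR-140, miR-22, miR-21 and miR-30a. The miR-322 arm ratio is the same ratio that passed among the 244 miRNAs set against miR-322-5p. Its call therefore depends on the set of features it is fitted and adjusted with.

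The miR-503 hairpin had 1.72, 1.49, 1.26 and 1.24 5p per 3p count after dexamethasone and 1.18, 0.997, 1.08 and 1.25 in controls (log2 change 0.34 ± 0.16, SE, limma adjusted p = 0.204, 95% interval -0.02 to 0.69). The miR-542 hairpin favoured 3p in every library, with 0.521, 0.382, 0.572 and 0.579 5p per 3p after dexamethasone and 0.685, 0.681, 0.605 and 0.622 in controls. Its highest treated value, 0.579, lay a little below its lowest control, 0.605 (log2 change -0.35 ± 0.16, SE, limma adjusted p = 0.204, 95% interval -0.73 to 0.02). Without dexamethasone replicate 2, the lowest at 0.382, the log2 change was -0.22 (limma adjusted p = 0.374, range over the 12 alternatives 0.142 to 0.374). For miR-351, read mostly as 5p, the log2 change was 0.07 with a 95% interval of -0.53 to 0.67 (limma adjusted p = 0.839), and it lay between -0.09 and 0.29 when 1 library was left out.

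**Figure D4:**
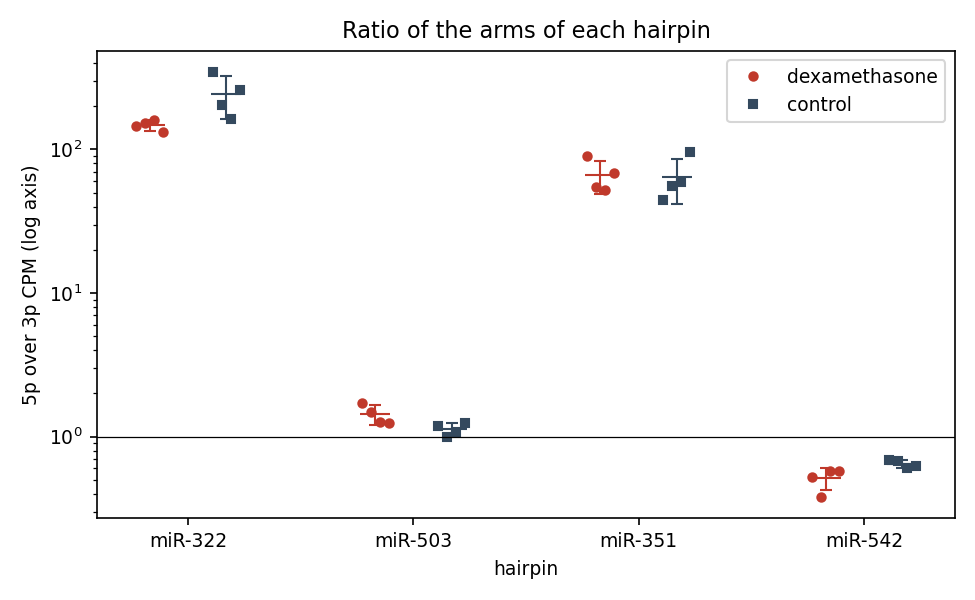
Ratio of 5p to 3p CPM, with a prior count of 1, on a log axis for the 4 cluster hairpins with both arms tested, in 4 dexamethasone libraries (circles) and 4 control libraries (squares), with bars for mean and SD; the line marks equal arms. miR-322 and miR-351 lie far above it, miR-503 near it and miR-542 below it in both groups.

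Among the table's miRNAs with a matched RefSeq sequence, others carry the same seed as 3 of the cluster arms. They are shown with the seed in capitals, to be set beside miR-322-5p (the first 4), miR-351-5p (the next 2) and miR-450a-5p (the last).
miR-15b-5p: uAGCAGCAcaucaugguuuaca
miR-16-5p: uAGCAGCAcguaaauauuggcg
miR-195-5p: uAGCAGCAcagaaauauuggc
miR-497-5p: cAGCAGCAcacugugguuugua
miR-125a-5p: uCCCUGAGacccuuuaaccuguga
miR-125b-5p: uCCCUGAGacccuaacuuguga
miR-450b-5p: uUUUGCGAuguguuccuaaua

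In the miR-15 and miR-16 group, known for holding cells in the first gap phase of the cell cycle, 0 of the 4 tested 5p arms were called higher and miR-497-5p was called lower. miR-16-5p averaged 184413 ± 5239 CPM after dexamethasone and 193157 ± 4462 CPM in controls (SD, n = 4 each), with a log2 fold change of -0.04 ± 0.04 (SE, adjusted p = 0.401 by edgeR), although every treated library was below every control in CPM. It was lower with upper quartile scaling, at -0.19 (adjusted p = 0.011 by edgeR), and at -0.11 when only miRNAs with 10 CPM or more in 4 samples were kept (adjusted p = 0.0458 by edgeR). Its change was below that of miR-322-5p by 0.31 (log2 difference -0.31 ± 0.10, SE, limma adjusted p = 0.0292). That difference missed the threshold without any 1 library other than dexamethasone replicate 4 or control replicate 4 (limma adjusted p = 0.0548 to 0.0774; range over the 12 alternatives 0.00833 to 0.111).

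miR-497-5p, which is cut from the same run as miR-195, stood at 34.5, 23.0, 28.8 and 21.8 CPM in dexamethasone replicates 1 to 4 and 37.9, 47.3, 43.6 and 50.8 CPM in control replicates 1 to 4. It fell without overlap (log2 fold change -0.70 ± 0.18, SE, adjusted p = 0.00644 by edgeR) and differed from miR-322-5p by -0.98 ± 0.13 (log2, SE, limma adjusted p = 5.62e-04). miR-15b-5p and miR-195-5p were not called, with 0.00 ± 0.08 and 0.17 ± 0.12 as log2 changes ± SE (edgeR adjusted p = 0.959 and 0.251). Their differences from miR-322-5p did not pass either, with 95% intervals of -0.54 to 0.01 and -0.40 to 0.18, except that miR-15b-5p passed without dexamethasone replicate 4 (limma adjusted p = 0.0317). Of the counts of the 5 miRNAs with this seed among those matched in RefSeq, miR-322-5p held 1.00 ± 0.0914% after dexamethasone and 0.809 ± 0.0375% in controls (SD, n = 4 each), and miR-16-5p nearly all of the rest.

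Among the miR-125 group, homologues of the worm lin-4 miRNA, miR-125b-5p averaged 137820 ± 6991 CPM after dexamethasone and 117386 ± 7742 CPM in controls (SD, n = 4 each). Its log2 fold change of 0.26 ± 0.06 (SE, adjusted p = 0.00329 by edgeR) was 0.11 with upper quartile scaling (adjusted p = 0.231 by edgeR). miR-125a-5p was not called (-0.05 ± 0.12, log2 fold change, SE, adjusted p = 0.758 by edgeR). Beside these, miR-351-5p was at 0.94 ± 0.07 (log2 fold change, SE). Of the counts of these 3 miRNAs, miR-351-5p held 1.05 ± 0.0812% after dexamethasone and 0.647 ± 0.0272% in controls (SD, n = 4 each).

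miR-450b-5p is the neighbour of miR-450a-5p in the genome and shares its first 20 bases, so the authors' counting could have split reads between them, and both are uncertain individually. It had 3, 9, 9 and 7 counts after dexamethasone and 2, 5, 6 and 3 counts in controls and did not pass the filter. With no filter its log2 fold change was 1.42 ± 0.54 (SE, adjusted p = 0.0561 by edgeR). When its counts were added to those of miR-450a-5p, a choice made after the sequences were seen, the pair had a log2 fold change of 0.71 (adjusted p = 0.0111 by edgeR). No other cluster arm shared more than 8 leading bases with another RefSeq mature miRNA.

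**Figure D5:**
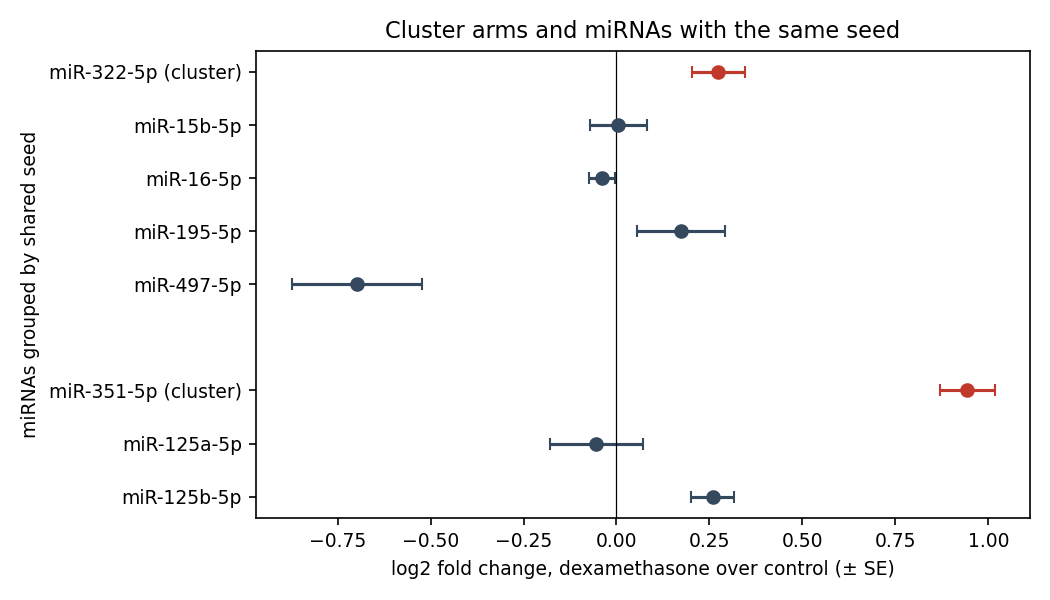
Log2 fold change, dexamethasone over control, with standard errors, of miR-322-5p and miR-351-5p (red) and the tested miRNAs with the same seed (dark). miR-497-5p lies below 0 at -0.70, while miR-351-5p at 0.94 lies above miR-125b-5p at 0.26 and miR-125a-5p at -0.05.

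The cluster was set beside other miRNAs in 3 lists. Over all tested miRNAs 24.9% were called higher and 21.2% lower. Tested arms of miRNAs known to restrain entry into DNA synthesis numbered 13 (miR-15, miR-16, miR-195, miR-497, miR-34, miR-449 and miR-26). Of these, 1 was higher (7.69%) and 5 lower (38.5%), with a median log2 fold change of -0.10. That median lay between -0.28 and -0.36 without any 1 dexamethasone library or control replicate 1, and was -0.15 without control replicate 2, -0.25 with upper quartile scaling and -0.05 with no filter. The count of rises was 2 without dexamethasone replicate 1 or 2 and with no filter. The rise was miR-26a-5p, at 10326 ± 1172 CPM after dexamethasone and 7916 ± 282 CPM in controls (SD, n = 4 each, adjusted p = 3.67e-04 by edgeR). The falls were in arms of miR-34b, miR-34c, miR-449a and miR-497. miR-34c-5p stood at 446 ± 34.02 CPM after dexamethasone and 665 ± 14.9 CPM in controls (SD, n = 4 each, adjusted p = 2.86e-05 by edgeR). Tested arms of growth-promoting miRNAs numbered 18 (miR-17 to miR-92a, miR-106b to miR-25, miR-21, miR-221 and miR-222). In this list 3 were higher (16.7%) and 1 lower (5.56%), with a median of 0.06. That median was -0.09 with upper quartile scaling and 0.00 to 0.09 in the other alternatives, 0.00 without control replicate 1, 0.02 without dexamethasone replicate 3 and 0.04 without control replicate 4 among them. Its most abundant members were miR-21-5p, which rose (0.58 ± 0.06), miR-25-3p, which was not called (0.10 ± 0.05), and miR-221-3p, which fell (-0.95 ± 0.09; log2 fold change ± SE, with p adjusted by edgeR of 1.29e-05, 0.159 and 7.20e-06). The count of rises in that list was 1 with upper quartile scaling, with DESeq2, with no filter and without control replicate 1, 2 or 3. Its count of falls was 4 without dexamethasone replicate 4, and 2 without control replicate 4, with upper quartile scaling, with DESeq2 and with no filter.

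Of 21 other tested arms from genes on chromosome X, 7 were higher and 1 lower, with a median log2 fold change of 0.28. The share called higher was 33.3%, against 24.9% of all tested miRNAs and 9 of 9 cluster arms. Upper quartile scaling gave 7 higher and 3 lower with a median of 0.13, and 2 were lower without dexamethasone replicate 4 or control replicate 4, with DESeq2 and with no filter. The median was 0.15, 0.17 and 0.14 without dexamethasone replicate 1, 3 and 4, over 22 arms each, and 0.50 with no filter, over 45 arms. miR-224-5p rose (1.45 ± 0.08), miR-98-5p was not called (-0.10 ± 0.07, but -0.25 and called lower with upper quartile scaling, adjusted p = 0.0227 by edgeR) and miR-221-3p, also of this list, fell (log2 fold change ± SE, with p adjusted by edgeR of 3.19e-08, 0.243 and 7.20e-06).

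The miRNAs whose profile over the 8 libraries was most like that of the cluster were miR-676, miR-3559-5p, miR-342-3p, miR-186-5p and miR-30a-5p, in that order. Likeness was the root mean square difference, in log2 CPM centred on each miRNA's mean, from the median profile of the 9 tested arms, over 207 candidates with a mean of at least 10 CPM. It was 0.0977 for miR-676, 0.127 for miR-3559-5p, 0.139 for miR-342-3p, 0.144 for miR-186-5p and 0.154 for miR-30a-5p. Among the cluster arms it ran from 0.104 for miR-503-3p to 0.347 for miR-351-3p. Their own values enter the median profile, so these distances are not comparable with the others. The listed miRNAs were picked for likeness, so their rise after dexamethasone follows from that choice. miR-676 averaged 525 ± 47.0 CPM after dexamethasone and 324 ± 6.98 CPM in controls (SD, n = 4 each). The genes of miR-676 and miR-3559 lie on chromosome X, the others on autosomes.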

How the data were processed

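miRNA sequencing of 8 rat BMSC samples was used, 4 with dexamethasone and 4 controls, grouped by sample title. Per the labels' protocols, RNA came from a miRNA kit and libraries from a total RNA kit. The submitters' processing notes name Bowtie 1.0 and mRatBN7.2. For the counter and for multiply matching reads, nothing is stated in the sources used here. Per the file headers and values, the deposited table holds counts per mature miRNA, CPM (count over column total, checked to within 4.98e-05), a log2 fold change (log2 ratio of rounded mean CPM plus 1, checked) and a p-value with an adjusted p-value. Which test gave the deposited p-value is not stated there.

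The quasi-likelihood test of edgeR 4.0.16, run under R 4.3.3, compared the groups after filterByExpr and TMM scaling, with Benjamini-Hochberg adjustment over 245 miRNAs and a threshold of 0.05. The 242 miRNAs left out made up no more than 0.0332% of any library. The standard error in edgeR is the log2 fold change divided by the square root of F. Ratios were tested with limma 3.58.1 on log2 values with a prior count of 1. Both were also run on simulated counts drawn with the spread that edgeR fitted here, which cannot test whether that spread is right. Alternatives were RLE and upper quartile scaling, DESeq2 1.42.0, 2 other filters, thinning, a replicate block, other prior counts and leaving out each library. Within groups no pair of libraries agreed within sampling noise (chi-square per degree of freedom 7.56 to 48.6). The highest values, 37.0, 48.6 and 48.5, were those of dexamethasone replicate 1 against replicates 2, 3 and 4. Every other pair was at 20.5 or less.

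miRNAs named outside the cluster were those with a member's seed, the 5 most alike in profile, and up to 3 most abundant of each list. The members and lists were chosen with earlier results of these data known. Sequences and gene order are from RefSeq (GRCr8), where 443 of 487 names matched.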

Additional observations from a re-analysis of the deposited data

Results flagged for a closer look

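In 3 of 32 groups of 4 libraries checked, 1 library lay far from the other 3, where chance gives about 1 in 20 for independent groups. miR-542-5p was at 162 CPM in dexamethasone replicate 2 and at 210.4 to 212 CPM in the other treated libraries. The summed level of the 10 cluster arms was 4171 CPM in dexamethasone replicate 4 and 4609 to 4684 CPM in the others. Without miR-322-5p that sum was 2478 CPM in dexamethasone replicate 4 and 2700.2 to 2707 CPM in the others. The sums share all arms but miR-322-5p and flag the same library. The flags are thus not independent, and their number cannot be set against chance. All 3 values were nevertheless above every control library. Without dexamethasone replicate 4 all 9 tested arms were called higher.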

How the results depend on the processing

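The number of cluster arms called higher was 6 to 9 over the 15 alternatives and the number called lower 0 in each; leaving out 1 library gave 6 to 9 and 0. miR-503-5p, miR-503-3p, miR-351-5p, miR-542-5p and miR-542-3p were called higher in all 15. Over all tested miRNAs, 41 to 70 were higher and 45 to 71 lower; upper quartile scaling gave 41 and 71, against 61 and 52. The number of cluster hairpins with a changed arm ratio was 0 in all 12 alternatives, where 1.89% of the 53 tested hairpins passed in the main test. The number of arms that differed from miR-322-5p was 5, and 4 without any 1 library. Same-numbered samples did not deviate together (correlations -0.22 to 0.08), which gave no sign of pairing but cannot settle whether they were prepared together. With a replicate block 8 arms were higher and miR-503-5p, miR-351-5p and miR-542-3p, 3 arms, differed from miR-322-5p; miR-450a-5p missed the threshold (edgeR adjusted p = 0.0572), and 1 growth-promoting arm rose, against 3. Depth limits the arms with the fewest counts, miR-322-3p, miR-351-3p and both of miR-450a, and every treated library was shallower.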

Other observations

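miR-503-5p and miR-542-5p exchanged places in the order of levels. The ratio of miR-503-5p to miR-542-5p was 1.30, 1.72, 1.08 and 1.10 in dexamethasone replicates 1 to 4 and 0.859, 0.906, 0.691 and 0.817 in control replicates 1 to 4, above 1 in every treated and below 1 in every control library. The pair was picked after its values were seen, and the difference was not tested.

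Both arms of the miR-450b hairpin, which lies between miR-542 and miR-450a, were near the limit of detection. miR-450b-3p reached at most 2.11 CPM after dexamethasone and 0.449 CPM in controls, and its log2 fold change with no filter was 1.41 ± 1.22 (SE, edgeR adjusted p = 0.452).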
